A study of Mus musculus with 8 samples.

Results

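Among the 23420 gene symbols counted in mouse embryonic stem cells (mESCs), 37 were nearly silent in untreated cells and rose after oxidative stress in IPO13+/+ and in IPO13-/- cells, which are wild type and knockout for Importin 13 (IPO13). These members were chosen from the CPM values (counts scaled to the library total) averaged over the libraries of a group. A member had a mean below 0.5 CPM in untreated cells of both genotypes, a mean of at least 0.3 CPM in treated cells of both genotypes, and a treated mean of at least 3 times the untreated mean in each genotype, with 0.02 CPM added to both means. Being low without treatment and higher after it was therefore the rule and is not a result, and the rises are given as a description with no test. In all, 10069 genes lay below the untreated limit in both genotypes, of which 3996 had no count in any library.

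The 8 libraries fall into 4 groups of 2, namely untreated and treated IPO13+/+ (wild type) mESCs and untreated and treated IPO13-/- (gene knockout) mESCs. Treated cells of both genotypes were exposed to 125 µM H2O2 for 1 h and then left to recover for 2 h. All cells had the 129 x C57BL/6 strain background, came from day 5 preimplantation blastocysts, and grew without feeder cells on gelatin in serum with the cytokine LIF. The number of clones behind each genotype is not given in the sources used here, and neither is whether the 2 libraries of a group came from separate cultures, so p-values measure only the spread between these libraries. *Ipo13* had 66.5 to 72.4 CPM in the 4 IPO13+/+ libraries and 25.0 to 26.6 CPM in the 4 IPO13-/- libraries, so its transcript was lower there but remained, and these counts do not show the loss of the protein. Between 60397877 and 73789079 reads were counted on genes per library, so that the limit of 0.3 CPM corresponds to 18.1 to 22.1 counts, and the smallest level told from 0, taken as 3 counts, to 0.0407 to 0.0497 CPM, which covers counting error only. All 8 of the chosen markers of embryonic stem cells were at or above 0.5 CPM in each group, with a summed level of 5658 to 6593 CPM.

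Pluripotent cells keep most genes of differentiated tissues at a very low level, many of them under the repressive histone marks set by Polycomb complexes. H2O2 is a reactive oxygen species that oxidises proteins, lipids and DNA and also acts as a signal, and cells answer it by switching on genes within hours. IPO13 belongs to the importin β family and carries proteins into and out of the nucleus. Among the 37 members are growth factors, receptors of blood and nerve cells, transcription factors of the limb and the inner ear, and enzymes of the gut and skin.

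Promoters of some abundant members are shown, because the stretch before a start can hold sites that switch a gene on. Which start these cells used was not tested. RefSeq promoter sequences, from 250 bases before to 50 bases after the annotated start, were found for 28 of the 37 members. *Art3*, *Pgf*, *Plcd4*, *Podn* and *Tbxa2r* had more than 1, and the first listed was used. The GENCODE start of *Tbxa2r*, at 81328731, lies in its second window and not in the first. For the first 4 by treated level that had at least 200 bases outside annotated exons, those bases are printed 5′ to 3′ on the strand of the gene, on GRCm38.p6 (mm10). Capitals mark matches on either strand to CACCC, the core of the KLF box, and to GCGTG, the core of the xenobiotic response element. The stretches are chr10:81328018-81328267 (plus strand) for *Tbxa2r*, chr11:103773925-103774149 (plus strand) for *Wnt3*, chr11:85896515-85896764 (plus strand) for *Tbx4* and chr19:36919616-36919849 (minus strand) for *Fgfbp3*. The *Tbx4* stretch lies inside the span of the gene in GENCODE, outside its exons.
Tbxa2r: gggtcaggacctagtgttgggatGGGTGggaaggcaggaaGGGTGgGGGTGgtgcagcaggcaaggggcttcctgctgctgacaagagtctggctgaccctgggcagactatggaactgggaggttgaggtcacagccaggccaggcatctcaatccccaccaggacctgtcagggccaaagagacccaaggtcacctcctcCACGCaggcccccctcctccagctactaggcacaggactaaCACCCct
Wnt3: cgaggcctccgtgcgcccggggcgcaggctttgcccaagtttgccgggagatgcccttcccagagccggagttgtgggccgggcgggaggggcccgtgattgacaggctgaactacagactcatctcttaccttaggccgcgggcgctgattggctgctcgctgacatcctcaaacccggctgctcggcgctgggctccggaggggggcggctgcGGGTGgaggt
Tbx4: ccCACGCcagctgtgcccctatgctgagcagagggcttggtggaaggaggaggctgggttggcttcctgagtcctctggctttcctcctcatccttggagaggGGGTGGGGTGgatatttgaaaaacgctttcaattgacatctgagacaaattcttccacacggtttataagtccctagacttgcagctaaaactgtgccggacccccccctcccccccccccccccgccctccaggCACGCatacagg
Fgfbp3: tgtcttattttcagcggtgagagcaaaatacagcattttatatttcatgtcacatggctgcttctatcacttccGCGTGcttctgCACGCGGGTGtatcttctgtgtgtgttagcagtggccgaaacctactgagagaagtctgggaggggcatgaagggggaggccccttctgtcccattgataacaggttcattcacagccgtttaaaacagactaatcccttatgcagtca

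Summed over the 37 members, the level was 6.56 and 6.53 CPM in the untreated IPO13+/+ libraries and 43.9 and 42.6 CPM in the treated ones. In IPO13-/- cells it was 5.79 and 6.54 CPM without treatment and 33.2 and 37.1 CPM after it. Each of the 37 members had every treated library above every untreated library, and in 26 of them the lowest treated library was at least 3 times the highest untreated one. All 37 also passed an FDR below 0.05 and a 2-fold change in each genotype with edgeR's quasi-likelihood fit, where 2.75% of the 19424 tested genes were called higher after stress in IPO13+/+ cells and 2.52% in IPO13-/- cells. The rule fixed this outcome. Called lower were 0.149% and 0.371%, and either way 2.9% and 2.89%, with 0 members lower. The median log2 fold change of the members was 2.72 in IPO13+/+ and 2.53 in IPO13-/- cells, and that of all tested genes was -0.0011 and 0. In bulk RNA, a rise in a few cells and a smaller rise in all cells cannot be told apart. With the roles of treated and untreated cells exchanged, the rule found 0 genes, a count taken from the means with no test.

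**Figure D1:**
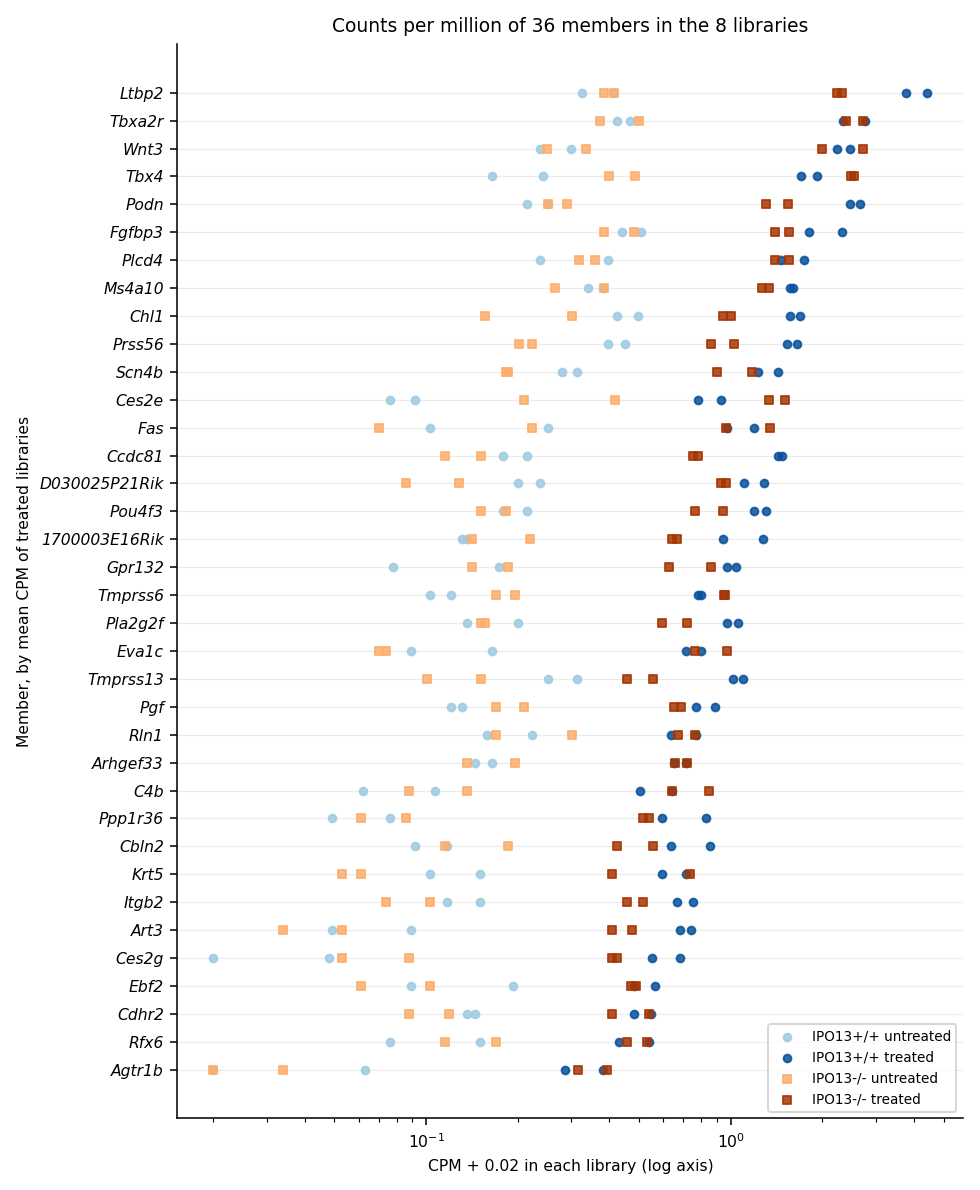
Level of 36 of the members in the 8 libraries, as CPM plus 0.02 on a log axis, with circles for IPO13+/+ and squares for IPO13-/- cells, light for untreated and dark for treated. In every row the 4 dark points lie to the right of the 4 light points, as the rule required of the means, and the rows are ordered by mean treated level, from *Ltbp2* to *Agtr1b*.

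Of the 9 members that are secreted, the matrix gene *Ltbp2*, whose product binds fibrillin and belongs to the family that holds latent TGF-β, had the largest count. Its counts went from 27 and 22 to 300 and 260 in IPO13+/+ cells. In IPO13-/- cells it had 29 and 22 counts without and 143 and 142 with treatment. The untreated libraries of the genotypes thus lay together, while the treated IPO13+/+ libraries lay above the treated IPO13-/- libraries, and the treated mean was 11.2 times the untreated mean in IPO13+/+ and 5.73 times in IPO13-/- cells. *Podn*, which encodes the matrix proteoglycan podocan, had the same layout. Its counts went from 16 and 14 to 167 and 183 in IPO13+/+ cells and from 20 and 14 to 83 and 94 in IPO13-/- cells, which is 11 times and 5.25 times. *Wnt3* encodes a WNT ligand of the early embryo that is needed for gastrulation. It went from 15 and 20 to 151 and 169 counts in IPO13+/+ cells and from 17 and 19 to 127 and 166 in IPO13-/- cells, which is 3.18 and 3.14 on the log2 scale, each with a standard error of 0.21. The treated libraries of the genotypes overlapped for *Wnt3*. *Fgfbp3* encodes a carrier of fibroblast growth factors and went from 29 and 35 to 156 and 124 counts in IPO13+/+ cells and from 34 and 22 to 99 and 85 in IPO13-/- cells. It had the highest untreated mean of all members.

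The other 5 secreted products were lower. *Pgf*, the placental growth factor of the VEGF family, went from 7 and 8 to 59 and 52 counts in IPO13+/+ cells and from 14 and 9 to 43 and 39 in IPO13-/- cells. The relaxin gene *Rln1* rose least in IPO13-/- cells, to 3.06 times the untreated mean, with 11 and 17 counts before and 42 and 46 after treatment. *Cbln2*, which encodes an organiser of synapses, went from 5 and 7 to 42 and 58 counts in IPO13+/+ cells and from 7 and 10 to 26 and 33 in IPO13-/- cells. The complement gene *C4b* went from 6 and 3 to 33 and 43 counts in IPO13+/+ cells and from 5 and 7 to 40 and 51 in IPO13-/- cells. It has a near-identical neighbour, so its counts are uncertain. *Pla2g2f*, a secreted phospholipase A2, went from 8 and 13 to 65 and 72 counts in IPO13+/+ cells and from 10 and 8 to 37 and 43 in IPO13-/- cells.

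At the cell surface, 11 members encode receptors, adhesion molecules and channel subunits. *Tbxa2r*, the receptor of the platelet agonist thromboxane A2, went from 31 and 29 to 187 and 161 counts in IPO13+/+ cells. In IPO13-/- cells it went from 26 and 29 to 153 and 167. Its treated mean was 2.53 CPM in IPO13+/+ and 2.54 CPM in IPO13-/- cells, and the libraries of the genotypes overlapped. *Fas*, the death receptor of the extrinsic apoptosis pathway and a known p53 target, went from 16 and 6 to 80 and 66 counts in IPO13+/+ cells and from 15 and 3 to 61 and 82 in IPO13-/- cells. Its untreated IPO13-/- libraries differed 4.06-fold in CPM, the widest gap in that group among the 36 members with counts in both libraries. *Gpr132*, a G protein-coupled receptor found on immune cells, went from 4 and 11 to 65 and 71 counts in IPO13+/+ cells and from 9 and 10 to 39 and 52 in IPO13-/- cells. *Itgb2*, the β2 integrin subunit of leukocytes, went from 9 and 7 to 44 and 51 counts and from 4 and 5 to 32 and 27. For *Gpr132* and *Itgb2* the treated IPO13+/+ libraries lay above the treated IPO13-/- libraries, also in CPM. Neither gene passed an FDR below 0.05 between genotypes in treated cells with edgeR. The treated *Fas* libraries overlapped between genotypes.

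*Agtr1b*, a receptor of angiotensin II, was the lowest member. Its counts went from 3 and 0 to 18 and 25 in IPO13+/+ cells and from 1 and 0 to 19 and 23 in IPO13-/- cells. With so few untreated counts, the ratio of summed counts per total was 14.7 with an exact 95% counting interval of 4.71 to 74.2 in IPO13+/+ cells, and 44.7 with an interval of 7.60 to 1807 in IPO13-/- cells. *Chl1*, a neural adhesion molecule of the L1 family, stood among the highest untreated members in IPO13+/+ cells. It went from 33 and 29 to 114 and 107 counts there and from 10 and 17 to 63 and 57 in IPO13-/- cells, with both treated IPO13-/- libraries below both treated IPO13+/+ libraries. *Scn4b*, a β subunit of sodium channels, went from 18 and 21 to 96 and 84 counts in IPO13+/+ cells and from 12 and 10 to 57 and 71 in IPO13-/- cells. *Eva1c*, a membrane protein, rose 5.95 times in IPO13+/+ cells and 12.1 times in IPO13-/- cells. Its treated libraries overlapped between genotypes, and its untreated ones did not, with 10 and 5 counts in IPO13+/+ and 4 and 3 in IPO13-/- cells. *Ms4a10* and the brush border cadherin *Cdhr2* reached 32 to 108 counts per treated IPO13+/+ library.

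Transcription factors of development gave 4 members. *Tbx4*, a T-box factor of the hindlimb and lung, went from 10 and 16 to 129 and 117 counts in IPO13+/+ cells and from 28 and 28 to 159 and 156 in IPO13-/- cells. It was higher in IPO13-/- cells before and after treatment. *Pou4f3*, a POU factor of the hair cells of the inner ear, went from 11 and 14 to 80 and 89 counts in IPO13+/+ cells and from 12 and 8 to 48 and 57 in IPO13-/- cells, so that its treated libraries lay lower in IPO13-/- cells. *Ebf2*, a factor of brown fat and neural cells, went from 12 and 5 to 37 and 32 counts and from 3 and 5 to 29 and 29. *Rfx6*, a factor of the endocrine pancreas, went from 9 and 4 to 28 and 36 counts and from 7 and 9 to 33 and 27. For *Ebf2* and *Rfx6* the treated libraries of the genotypes overlapped.

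Enzymes gave 7 members. Of the 3 serine proteases, *Prss56*, which is known from eye growth, went from 26 and 31 to 111 and 105 counts in IPO13+/+ cells and from 15 and 11 to 54 and 62 in IPO13-/- cells. *Tmprss13*, a membrane protease of the epidermis, went from 16 and 21 to 68 and 75 counts and from 6 and 8 to 28 and 33. In both genes, all libraries of IPO13-/- cells were below those of IPO13+/+ cells with the same treatment. *Tmprss6*, a liver protease of iron balance, went from 7 and 6 to 53 and 53 counts in IPO13+/+ cells and from 13 and 9 to 60 and 58 in IPO13-/- cells. It lay higher in IPO13-/- cells with and without treatment, but did not pass an FDR below 0.05 between genotypes in either with edgeR. The carboxylesterase *Ces2e* was also higher in IPO13-/- cells, going from 5 and 4 to 62 and 53 counts in IPO13+/+ cells and from 14 and 24 to 85 and 92 in IPO13-/- cells. Its relative *Ces2g* went from 0 and 2 to 45 and 37 counts in IPO13+/+ cells and from 5 and 2 to 26 and 24 in IPO13-/- cells. In IPO13+/+ cells that is a ratio of 42.1 with an exact 95% counting interval of 11.3 to 354. The carboxylesterases of this family resemble each other, so the counting could split reads between them. *Plcd4*, a phospholipase C, went from 15 and 27 to 117 and 100 counts in IPO13+/+ cells and from 25 and 18 to 99 and 85 in IPO13-/- cells. *Art3*, of the ADP-ribosyltransferase family, went from 2 and 5 to 45 and 50 counts and from 1 and 2 to 25 and 28, and had the largest rise among the members when the smaller of the 2 genotypes is taken, with 10.3 times in IPO13+/+ and 10.1 times in IPO13-/- cells.

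The last 6 members act inside the cell or have no settled role. *Ppp1r36*, a partner of protein phosphatase 1, went from 2 and 4 to 39 and 56 counts in IPO13+/+ cells and from 3 and 4 to 32 and 32 in IPO13-/- cells, and its lowest treated library was 7.53 times its highest untreated one, the widest such gap of all members. *Ccdc81*, a coiled-coil protein gene, went from 11 and 14 to 96 and 101 counts in IPO13+/+ cells and from 7 and 8 to 47 and 47 in IPO13-/- cells. Its treated replicates lay close together within each genotype and far apart between them. *Krt5*, the keratin of basal epithelial cells, went from 9 and 6 to 47 and 40 counts and from 3 and 2 to 25 and 44, with treated IPO13-/- libraries that differed 1.84-fold in CPM. *Arhgef33*, a guanine nucleotide exchange factor gene, went from 10 and 9 to 43 and 48 counts and from 13 and 7 to 41 and 43. *D030025P21Rik*, the only member that is not annotated as protein coding, went from 15 and 13 to 74 and 88 counts and from 8 and 4 to 61 and 56. A RIKEN cDNA gene on chromosome 6 went from 8 and 8 to 63 and 87 counts and from 9 and 12 to 40 and 40.

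Since CPM values are not corrected for length, levels of different genes were compared per kilobase of annotated exon. On that scale *Ms4a10* (1.41 CPM per kb, mean of the treated groups), *Tbxa2r* (1.32) and *Fgfbp3* (0.987) were the highest members and *Ebf2* (0.0695) the lowest, while *Ltbp2*, with the largest count, had 0.387 CPM per kb. The members had a median exonic length of 3245 bases, against 2499.5 bases for the tested genes below the untreated limit and 3778 bases for all tested genes found in GENCODE M21.

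The rise ranged from 3.54 times for *Chl1* to 18.1 times for *Ces2g* in IPO13+/+ cells, with a median of 6.03 times, and from 3.06 times for *Rln1* to 13.1 times for *Agtr1b* in IPO13-/- cells, with a median of 5.25 times. These ratios carry the added 0.02 CPM, which lowers them for the scarcest members. In 23 of the 37 the rise was larger in IPO13+/+ cells. The ratio of the rises was at least 2 in 5 members and at most 0.5 in 1, *Eva1c*, for which it was 0.492. It was largest for *Ces2g*, with 3.07, where the untreated IPO13+/+ libraries held only 2 counts. The median ratio was 1.09.

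**Figure D2:**
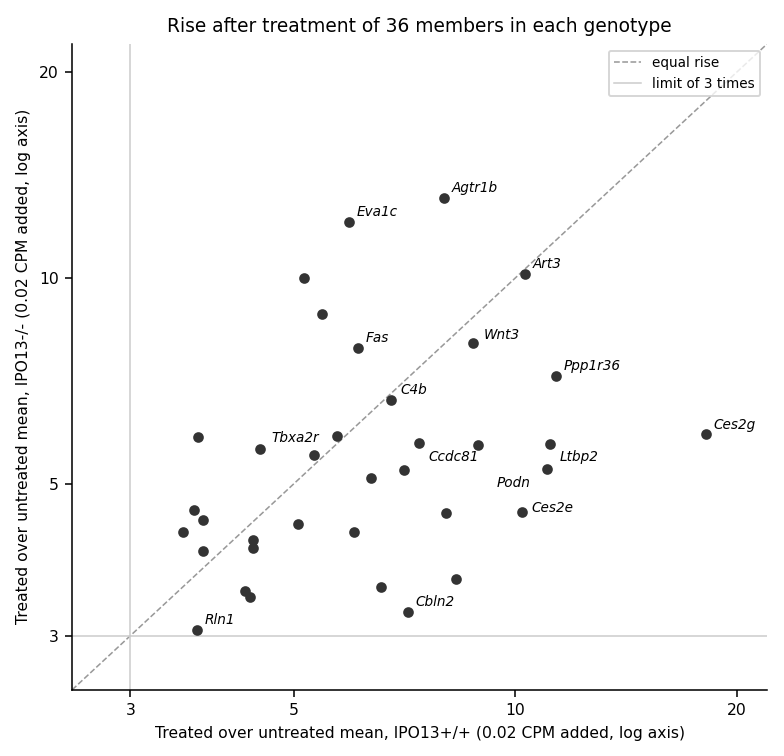
Treated over untreated mean CPM of 36 of the members, with 0.02 CPM added to both, in IPO13+/+ cells (horizontal) and IPO13-/- cells (vertical), both on log axes, with a dashed line for equal rises and grey lines at the limit of 3 times. *Art3* and *Wnt3* lie near the dashed line, *Ltbp2*, *Podn*, *Ces2e* and *Ces2g* to its right, and *Eva1c* and *Agtr1b* above it.

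Near the untreated limit of 0.5 CPM, the members just inside were *Fgfbp3*, with a higher untreated mean of 0.453 CPM, and *Chl1*, with 0.440 CPM. Just outside were *Ccdc88b* (0.537 CPM) and the WNT ligand gene *Wnt9a* (0.544 CPM), which rose 5.07 times in IPO13+/+ and 4.05 times in IPO13-/- cells. At the treated limit of 0.3 CPM, *Agtr1b* (0.313 CPM in the lower genotype) and *Ces2g* (0.397 CPM) were the nearest inside, and *Snx20* (0.299 CPM) and *Sec14l3* (0.294 CPM) the nearest outside. At the limit of 3 times, *Rln1* (3.06 times in the lower genotype) and *Cbln2* (3.25 times) were inside, and *Scx* (2.98 times) and *Sdsl* (2.91 times) outside. Only the untreated limit kept out 55 genes, only the treated limit 45 and only the limit on the rise 358, so the list is a slice of a gradual range of genes.

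Since the rule used the means of all libraries, the rise was read again in libraries that had no part in the choice. When the rule was applied to the 4 libraries numbered 1 alone, it chose 39 genes, of which 33 are among the 37 members. In the libraries numbered 2, all 39 were above their untreated level in both genotypes, 32 were at least 3 times above it in both and 31 met the whole rule. The median rise in these unused libraries was 5.88 times in IPO13+/+ and 5.27 times in IPO13-/- cells. Of all 10041 genes below the untreated limit in the libraries numbered 1, 0.876% were at least 3 times above it in both genotypes in the libraries numbered 2. Chosen on the libraries numbered 2, there were 37 genes, of which 35 were at least 3 times up in both genotypes and 31 met the whole rule in the libraries numbered 1, against 0.805% of 10061 genes. Both backgrounds hold the chosen genes and also 3996 genes with no count in any library, which could not rise. Whether the libraries of a group came from separate cultures is not given, so the unused libraries may not be independent of those used. *Cbln2* was chosen on the libraries numbered 1 and did not meet the rule in the others, and for *Ebf2* and *Agtr1b* it was the other way round. *Cbln2* rose 2.98 times in the unused IPO13-/- libraries and *Ebf2* 2.92 times in the unused IPO13+/+ libraries, while *Agtr1b* stayed below 0.3 CPM.

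**Figure D3:**
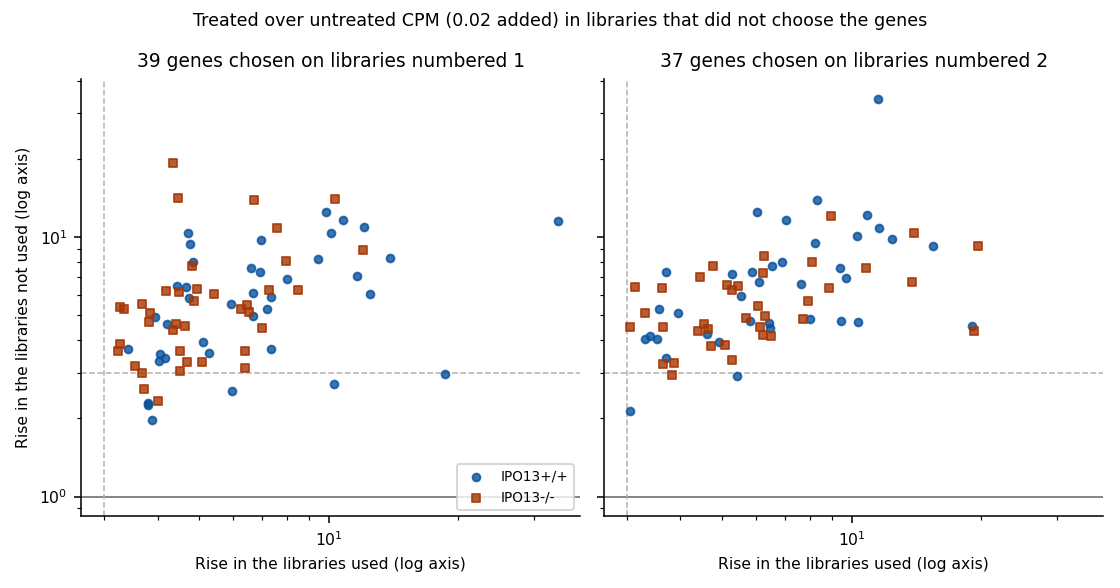
Treated over untreated CPM, with 0.02 added, in the libraries that chose the genes (horizontal) and in those that did not (vertical), on log axes, with circles for IPO13+/+ and squares for IPO13-/- cells, a solid line at 1 and dashed lines at 3 times. All points lie above 1, and most of the 39 and 37 genes lie above 3 times in both genotypes.

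The genotypes were then compared within treated cells. The rule set a lower limit on both treated means and divided them by the untreated means. This contrast therefore also runs on values that chose the members. With edgeR's quasi-likelihood fit of all 8 libraries, 4.56% of all tested genes passed an FDR below 0.05 and a 2-fold change. Higher in IPO13-/- cells were 2.58% and lower 1.98%. Of the tested genes below the untreated limit, 5.62% passed, and of the 37 members 1 did. This was *Tmprss13*, lower in treated IPO13-/- cells (-1.11 on the log2 scale, SE 0.21, FDR = 0.00012). Without the first treated IPO13-/- library it was -0.96 (FDR = 0.0064) and no longer reached 2-fold, so the count was 0. With no limit on the fold, 14 members (37.8%) passed an FDR below 0.05, beside 36.6% of all tested genes and 7.01% of the tested genes below the untreated limit. Of these, 12 were lower in IPO13-/- cells, against 17.5% of all genes, and 2 were higher, against 19.1%. Of the 10069 genes below the untreated limit, only 395 reached the treated limit in both genotypes, as every member had to. The 7.01% is thus a share over mostly scarcer genes. The number of 14 was 6 with DESeq2 and 7 without the second treated IPO13+/+ library.

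*Ltbp2* (log2 fold change -0.86, standard error 0.11, FDR = 4.3e-07), *Podn* (-0.87, standard error 0.13, FDR = 5.4e-06) and *Ccdc81* (-0.95, standard error 0.17, FDR = 5.7e-05) had the smallest FDRs of the 12, from edgeR. These 3 matrix and coiled-coil genes, with the neural adhesion gene *Chl1* (-0.76, standard error 0.17) and the protease gene *Prss56* (-0.78, standard error 0.16), were past the FDR under each of the 16 alternatives run. *Tmprss13* also stayed below an FDR of 0.05 under each of them. *Pla2g2f*, *Pou4f3*, *Fgfbp3*, *Art3*, *Cbln2* and the RIKEN cDNA gene on chromosome 6 made up the rest of those lower, and each of these 6 lost its call under 2 or more alternatives, *Cbln2* under 8 of 16. *Tbx4* (0.47, standard error 0.13, FDR = 0.0035) and *Ces2e* (0.74, standard error 0.19, FDR = 0.0023) were higher in treated IPO13-/- cells. Both calls were lost with DESeq2 (FDR = 0.128 and 0.0893) and, with edgeR, without the second treated IPO13+/+ library (FDR = 0.0681 and 0.0514). *Wnt3* and *Tbxa2r* had log2 fold changes of -0.01 (standard errors 0.13 and 0.12). Over the 37 members, the median was -0.32 and 27 values were negative, beside a median of 0 over all tested genes, of which 49.7% were positive. In 20 members both treated IPO13+/+ libraries lay above both treated IPO13-/- libraries, and in 4 both lay below (54.1% and 10.8%). Over all tested genes these shares were 30.5% and 34.3%, and over the tested genes below the untreated limit 16.7% and 20.7%.

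**Figure D4:**
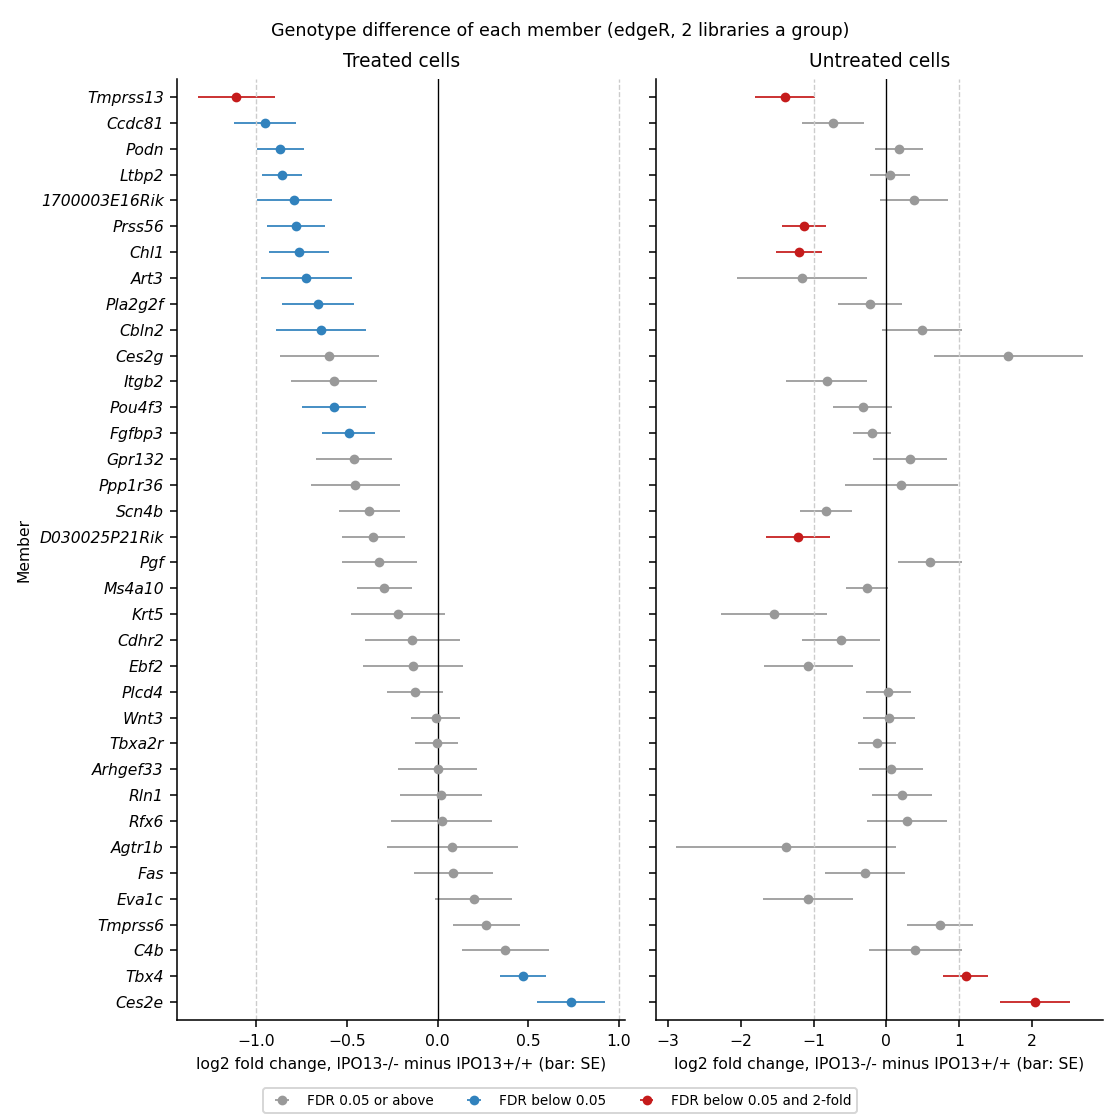
Log2 fold change of IPO13-/- over IPO13+/+ cells for 36 of the members, with bars for the standard error, in treated cells (left) and untreated cells (right), in red for members past an FDR below 0.05 and 2-fold, blue for those past the FDR alone and grey for the rest. In treated cells 26 of 36 points lie below 0, and the bars of untreated cells are longer because the counts are smaller.

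In untreated cells, where all members were near silent, 6 of the 37 (16.2%) passed an FDR below 0.05 and a 2-fold change between genotypes. Beside this stood 4.71% of all tested genes (2.86% higher and 1.84% lower) and 5.62% of the tested genes below the untreated limit. The rule bounded both untreated means and divided by them, so this contrast runs on values that also chose the members. With no limit on the fold the count was also 6, against 38.2% of all tested genes (18.7% higher and 19.4% lower) and 6.11% of the tested genes below the untreated limit. *Ces2e* (log2 fold change 2.04, standard error 0.48, FDR = 0.0012) and *Tbx4* (1.09, standard error 0.31, FDR = 0.0055) were higher in IPO13-/- cells. *Tmprss13* (-1.39, standard error 0.41, FDR = 0.0076), *Chl1* (-1.20, standard error 0.31, FDR = 0.0031), *Prss56* (-1.13, standard error 0.30, FDR = 0.0039) and *D030025P21Rik* (-1.21, standard error 0.44, FDR = 0.032) were lower. Of these, *D030025P21Rik* lost its call with DESeq2 and when only the 4 libraries compared were fitted. The count fell to 3 without the first or without the second untreated IPO13-/- library, and *Prss56* alone was called under each alternative. All 6 had the same sign in treated cells, and the median of all members in untreated cells was -0.20.

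Whether the 2 genotypes rose to a different extent was tested as the interaction of genotype and stress. None of the 37 members passed an FDR below 0.05, where 2.71% of all tested genes did (2.01% with a larger and 0.705% with a smaller value in IPO13-/- cells). Of the 6073 tested genes below the untreated limit, only 4 (0.0659%) did, so a count of 0 does not set the members apart from these. At an unadjusted p below 0.05 from edgeR there were 5 members (13.5%), beside 3.15% of the tested genes below the untreated limit. Only 395 of the latter reached the treated limit that every member met, so these shares are not over genes of like counts. The share over all tested genes at this p was not computed. At the FDR limit, limma-voom and DESeq2 called 0, though DESeq2 gave no FDR to 34 of the 37. The rule favours this outcome, because it asks for a rise in both genotypes. *Ltbp2* had the smallest p, at -0.91 in log2 units (SE 0.30, FDR = 0.11), followed by *Podn* with -1.04 (standard error 0.36, FDR = 0.13). The largest were those of *Ces2g* (-2.28, standard error 1.06, FDR = 0.30) and *Agtr1b* (1.46, standard error 1.55, FDR = 0.75), which have the fewest untreated counts. For *Wnt3* it was -0.04 with a standard error of 0.38, an error that leaves room for differences of some size.

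On GENCODE M21 (GRCm38), all 37 members were found, 36 of them protein coding, on 18 chromosomes, with 5 on chromosome 12 and 4 on chromosome 19. *Ltbp2* (chromosome 12, 84783212 to 84876532, minus strand) and *D030025P21Rik* (chromosome 12, 84875769 to 84879755, plus strand) start head to head and overlap in exons. Whether the counting used strand is not given in the sources used here, so reads in that overlap cannot be told apart between them. *Pgf* lies 290103 bases away on the same chromosome. *Ces2e* (chromosome 8, 104926260 to 104934672, plus strand) and *Ces2g* (chromosome 8, 104961718 to 104969537, plus strand) are 27046 bases apart, and *Scn4b* and *Tmprss13* lie 164948 bases apart on chromosome 9.

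Of the 37, 3 (8.11%) overlapped a gene called after stress, beside 0.704% of the tested genes below the untreated limit and 0.713% of all tested genes. They were *Ltbp2* and *D030025P21Rik*, which overlap each other, and *Art3* (chromosome 5, 92331827 to 92414628, plus strand). Since the rule fixed the calls of members, *Ltbp2* and *D030025P21Rik* add to this share through the choice itself. The exons of *Art3* overlap those of the chemokine gene *Cxcl10* on the opposite strand. *Cxcl10* went from 0.497 to 1.33 CPM in IPO13+/+ and from 0.703 to 1.99 CPM in IPO13-/- cells, and its part in the counts of *Art3* was not tested. A gene called after stress ended within 10 kb upstream on the same strand for 2 members (5.41%, beside 0.849% below the untreated limit). For *Ces2g* this was its relative *Ces2f*, 1671 bases upstream, and for the RIKEN cDNA gene on chromosome 6 it was *Rtkn*, 3825 bases upstream, which went from 13.5 to 37.6 CPM in IPO13+/+ and from 7.16 to 23.3 CPM in IPO13-/- cells. Reads that run on from *Rtkn* into that gene were not tested. *Tbxa2r* lies 2489 bases downstream of *Cactin*, which stood at 71.5 to 75.2 CPM in all 4 groups. *Plcd4*, *Podn* and *Arhgef33* overlap genes of 42.4 to 108 CPM that were not called. Any counted gene overlapped 21.6% of the members and 23.5% of the tested genes below the untreated limit.

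In the first listed promoter window of each gene, 13 motifs were searched on both strands. The choice of window matters, as CACCC was only in the second window of *Pgf* and only in the first of *Plcd4*. CACCC, the core of the KLF box, was found in 22 of the 28 promoters (78.6%), and in 61.2% of the tested genes below the untreated limit, 62.9% of tested genes and 56.7% of all promoters. GCGTG, the core of the xenobiotic response element, was in 17 (60.7%), against 26.7%, 45.0% and 32.5%. The SP1 box GGGCGG was in 9 (32.1%), against 28.6%, 55.3% and 35.9%. With 28 promoters these shares are imprecise, and the differences were not tested. The exact 95% binomial intervals, which treat the promoters as independent, were 59.0% to 91.7% for CACCC and 40.6% to 78.5% for GCGTG, and they hold the shares of tested genes and, for CACCC, of genes below the untreated limit. In the printed stretches, *Tbxa2r* holds 4 CACCC matches, at the far end and next to the start, and *Fgfbp3* a run where GCGTG and CACCC matches join. The antioxidant response element TGACNNNGC was in 6 promoters (21.4%, against 12.1% below the untreated limit), and the TATA box TATAAA in 5 (17.9%, against 15.8%). AP-1 (TGANTCA) and the heat shock element (GAANNTTC) were in 2 each (7.14%, against 10% and 7.94% below the untreated limit), the p53 decamer in 3 (10.7%, against 8.72%) and the NF-kappaB site in 1 (3.57%, against 5.47%). CRE (TGACGTCA), EGR (GCGGGGGCG), the ATF4 composite (TGATGCAA) and the CArG box were in 0 of 28, against 0.857% to 2.09% below the untreated limit. A match is only these letters in this window. The windows of the members had a median GC content of 57.8%, against 52.0% below the untreated limit and 59.0% for tested genes, and 10 (35.7%) had an observed to expected CpG ratio of at least 0.6, against 20.3% and 57.9%. The part of base composition in the shares of GC-rich motifs was not tested.

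**Figure D5:**
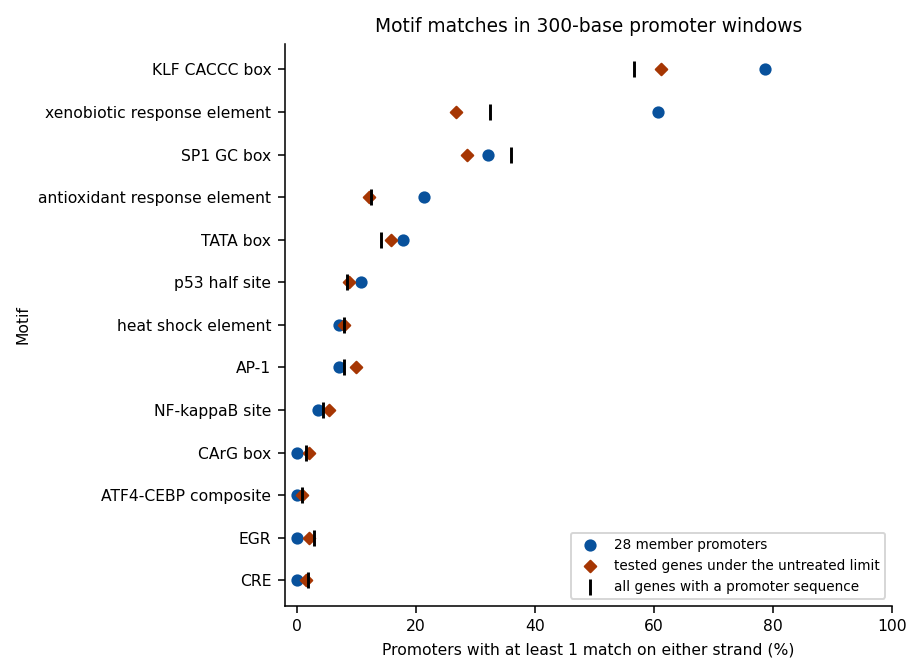
Share of promoter windows with at least 1 match to each of 13 motifs, in %, for the 28 members with a sequence (circles), tested genes below the untreated limit (diamonds) and all genes with a sequence (bars). The circles of the KLF box (78.6%) and the xenobiotic response element (60.7%) lie to the right of both backgrounds, and those of the other motifs lie closer to them.

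Of the 37 members, 23 are in at least 1 of 10 gene lists written with earlier results of these data known, and 14 are in none. Among 35 tested immune and inflammatory genes, 14 were called higher in IPO13+/+ and 15 in IPO13-/- cells and 0 lower, with medians of 0.94 and 1.31 on the log2 scale, and 6 of them are members, namely *Fas*, *Itgb2*, *Tbxa2r*, *Gpr132*, *Pla2g2f* and *C4b*. Of 19 WNT ligands, 9 were higher in IPO13+/+ and 6 in IPO13-/- cells, with medians of 1.05 and 0.45, and *Wnt3* is the member. Ion channels, receptors and synaptic genes gave 13 and 13 of 35 higher, with 1 lower in IPO13+/+ cells, with medians of 0.81 and 0.67, and hold *Scn4b*, *Chl1*, *Cbln2* and *Agtr1b*. Of 30 vascular and matrix genes, 9 and 13 were higher (medians 0.51 and 0.96), with the members *Ltbp2*, *Podn*, *Fgfbp3* and *Pgf*. Developmental transcription factors, 40 in all, had 11 higher in each genotype and 1 and 2 lower (medians 0.21 and 0.39), and *Tbx4*, *Pou4f3*, *Ebf2* and *Rfx6* are members.

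Proteases and their inhibitors gave 7 and 8 of 31 higher (medians 0.34 and 0.35), with *Prss56*, *Tmprss6* and *Tmprss13*, and stratified epithelium genes 9 and 11 of 29 (medians 0.56 and 0.76), with *Krt5* and *Tmprss13*. In treated cells, 6 of these 29 epithelium genes were lower and 1 higher in IPO13-/- cells, with a median of -0.61, beside 1.98% of all genes lower. In untreated cells 7 were lower and 1 higher, with a median of -0.69, beside 1.84% of all genes lower. Among 29 p53 targets, 8 and 10 were higher (medians 0.65 and 0.84), of which *Fas* was the only one below the untreated limit. Immediate early genes gave 6 and 6 of 37 higher and 1 and 0 lower (medians 0.27 and 0.51), and clustered histone genes 13 and 7 of 61 higher (medians 0.56 and 0.58). Neither list holds a member. These counts stand beside 2.75% and 2.52% of all genes called higher and, as the members are part of the lists, carry no weight for them.

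Summed levels of the markers chosen for other cell types are given here, and their part in the members' rise was not tested. The 8 keratinocyte markers, which include *Krt5*, summed to 4.42 to 4.43 CPM in untreated and 5.03 to 5.04 CPM in treated IPO13+/+ cells, and to 3.41 to 3.97 and 4.52 to 4.77 CPM in IPO13-/- cells, with *Ivl* at 0 in both untreated IPO13-/- libraries. The member *Krt5*, whose rise the rule required, makes up much of the change in these sums. Its mean went from 0.107 to 0.634 CPM in IPO13+/+ and from 0.037 to 0.55 CPM in IPO13-/- cells. The 6 blood cell markers counted went from 11.8 to 11.9 up to 16.5 to 17.0 CPM and from 11.8 up to 17.3 to 18.3 CPM, with the macrophage gene *Cd68* at a mean of 10.8 CPM before and 15.7 CPM after treatment in IPO13+/+ cells and of 10.7 and 16.8 CPM in IPO13-/- cells, and the means of the others at most 0.661 CPM. The 8 fibroblast markers went from 8.41 to 8.58 up to 9.76 to 10.3 CPM and from 7.58 to 8.76 up to 9.17 to 9.83 CPM, with *Postn* at 0 in all 4 IPO13+/+ libraries. Neuron markers went from 553 to 592 down to 510 to 528 CPM in IPO13+/+ cells and from 514 to 528 down to 499 to 514 CPM in IPO13-/- cells. Trophectoderm markers lay between 88.3 and 111 CPM and primitive endoderm markers between 129 and 198 CPM in all libraries. Markers of the 2-cell-like state summed to 1.65 to 1.92 CPM in untreated and 1.59 to 1.72 CPM in treated IPO13+/+ cells, and to 4.08 to 4.34 and 2.84 to 3.40 CPM in IPO13-/- cells.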

How the data were processed

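RNA-seq of mouse ES cells was deposited by the authors as raw read counts per gene and as CPM (counts scaled to the library total), in 1 file per library. The submitters' processing notes name bcl2fastq, STAR 2.3.1, HTSeq, limma and the build mm10, and the study's methods name voom and limma for differential expression. The strand setting of the counting is not given in the sources used here. The deposited CPM equal each count divided by the library total, within rounding, and are not corrected for gene length.

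The members were found from the CPM by the rule given in the report. The members and the gene lists were chosen with earlier results of these data known. Tests used edgeR 4.0.16 (R 4.3.3), with a quasi-likelihood fit of all 8 libraries on the counts, TMM scaling over the 19424 genes that were counted in 1 or more libraries. Calls had a Benjamini-Hochberg FDR below 0.05 over all these genes and a log2 fold change of at least 1 in size, or the FDR alone for the interaction. Standard errors (SE) were taken as the size of the log2 fold change over the root of the F statistic. The genotype counts without a fold limit were added after the data were seen. DESeq2 1.42.0, limma-voom (limma 3.58.1), other scalings, filters, limits and leaving out each library were alternatives. The procedure was tested on simulated data.

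Named genes were the 10 members with the highest treated level, the 10 with the largest smaller rise, those nearest the limits, those called between genotypes, list members and those beside a stress-called gene, and the remaining members were named to account for the list, except 1 that is not reported here and is left out of the plots of members. Positions came from GENCODE M21 and promoters from RefSeq on GRCm38.p6. Symbols that begin with a digit were described and not named.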

Additional observations from a re-analysis of the deposited data

How the results depend on the processing

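The number of members was 87 with a rise of at least 2 times and 24 with an untreated limit of 0.25 CPM, against 37. It was 28 with 0.1 CPM added or with the limits set on every library, 42 with nothing added, 38 on TMM-scaled CPM, 26 at 4 times, and 37 to 41 when 1 library was left out. The members called between genotypes in treated cells numbered 0 to 1 when 1 library was left out, and 1 under the other alternatives. Without a fold limit they numbered 6 with DESeq2 and 7 to 14 when 1 library was left out, 7 of them without the second treated IPO13+/+ library, against 14. In untreated cells they numbered 3 to 6 when 1 library was left out, with and without the fold limit. The cause of these changes was not tested. The interaction count stayed at 0 under each of its 15 alternatives, and a fit of only the libraries compared was not run for it because it needs all 8. DESeq2, among these alternatives, gave no FDR to 34 of the 37 members, so its count could hardly differ from 0. No called result changed sign. The share of members with the SP1 box, for which no call was made, was 3.5 percentage points above that of tested genes below the untreated limit and differed by -3.8 points from that of all promoters. The replicate numbers of the labels were not taken as pairs. Over 12615 genes, same-numbered deviations from the group means had correlations of -0.027 to -0.0052 between treated IPO13+/+ cells and each other group. Among the other groups they were 0.16 to 0.36, so these values do not settle whether the numbers mark pairs. Fitted with a replicate block, the counts were 1, 14, 6 and 0 for treated cells, treated cells without a fold limit, untreated cells and the interaction, as without it. Over all tested genes, the interaction calls went from 527 without the block to 1291 with it. With 2 libraries a group and 0 to 35 counts per untreated library, small differences in untreated cells were not detectable at this depth.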

Other observations

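The members *Ces2e* and *Ces2g* belong to a cluster of carboxylesterase genes on chromosome 8, of which 8 are in the table. *Ces2f* went from 1 and 0 to 10 and 7 counts in IPO13+/+ cells and likewise from 1 and 0 to 10 and 7 in IPO13-/- cells. *Ces2b* had 0 counts in all 4 untreated libraries, 3 and 10 counts in treated IPO13+/+ and 4 and 4 in treated IPO13-/- cells. *Ces2c* had 1 count in 1 treated library of each genotype, and *Ces2a*, *Ces2d-ps* and *Ces2h* had no count in any library. These genes resemble each other, and how the counting dealt with reads that match several of them was not tested.

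The rule was met in IPO13+/+ cells alone by 55 genes and in IPO13-/- cells alone by 27, and such a choice favours a gap between the genotypes. In the other genotype, 55 of the 55 and 26 of the 27 were also above their untreated level, with median rises of 2.61 and 2.74 times against 4.07 and 3.78 times in the genotype that met the rule. The interaction passed an FDR below 0.05 in 6 and 4 of them, beside 2.71% of all tested genes, and it runs on values that also chose them. Of these, 4 are given here, chosen after their values were seen. *Bdkrb2*, a bradykinin receptor, went from 79 and 90 to 132 and 150 counts in IPO13+/+ cells and from 37 and 25 to 159 and 141 in IPO13-/- cells (interaction 1.65 on the log2 scale, standard error 0.23). *Wnt10a*, a WNT ligand, went from 69 and 81 to 188 and 217 counts and from 24 and 22 to 107 and 119 (0.98, standard error 0.25). In the other direction, *Nlrc5*, an activator of MHC class I genes, went from 28 and 27 to 154 and 151 counts in IPO13+/+ cells and from 56 and 39 to 106 and 111 in IPO13-/- cells (-1.15, standard error 0.25). *Fam163b* went from 26 and 25 to 193 and 185 counts and from 87 and 67 to 232 and 256 (-1.10, standard error 0.23). For these 4 the untreated levels also lay apart between the genotypes.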
